A study of Mus musculus with 5 samples.

Results

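The miR-19, miR-25, miR-92 and miR-363 family members are microRNAs (miRNAs) made largely from the miR-17-92 cluster and its paralogues. They were followed on 5 single-colour miRNA arrays of mouse embryonic stem (ES) cells and an embryoid body. The members were taken by their names on the array: mmu-miR-19a-3p, mmu-miR-19b-3p, mmu-miR-25-3p, mmu-miR-92a-3p and mmu-miR-363-3p, together with both arms of miR-92b (mmu-miR-92b-3p and mmu-miR-92b-5p), which comes from a locus of its own. The prefix mmu, for mouse, is left out below. All 7 names were found, each on 1 spot, among the 1265 miRNA spots of the array.

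Total RNA of each culture carried the dye Hy5 and went onto 1 array, so no culture had a replicate. V6.5 is a wild-type mouse ES line. PKM1 KI is an ES line with, by its name, a knock-in of PKM1, a muscle-type isoform of pyruvate kinase, which acts in glycolysis; the labels do not say from which line it was made. 2TS22c and ZHBTc4 are known as ES lines in which a drug-controlled transgene supplies Sox2 and Oct3/4, respectively. The labels name no drug for any culture, and they do not mention feeder cells or the number of clones. These 4 ES cultures grew with leukaemia inhibitory factor (LIF), which maintains mouse ES cells. The embryoid body (EB), an aggregate of differentiating cells, was made from V6.5 and floated without LIF for 1 week.

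A miRNA is cut from one arm of an RNA hairpin and guides Argonaute proteins to messenger RNAs that pair with its seed, the bases near its 5′ end. The miR-17-92 cluster encodes the miR-17, miR-18, miR-19 and miR-92 types on one primary transcript; it is known for promoting proliferation and survival, is active in ES cells, and is a target of Myc proteins. Of the members, miR-92a and miR-25 share a seed whose known targets include Bcl2l11, which encodes the pro-apoptotic protein Bim.

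The mature sequences were matched by name in RefSeq (GRCm38.p6) for all 7 members. They are shown because the seed, in capitals (bases 2 to 8 from the 5′ end), divides the members into 3 groups, and because members with one seed did not all have the same pattern on the arrays.
miR-19a-3p: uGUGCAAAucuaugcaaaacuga
miR-19b-3p: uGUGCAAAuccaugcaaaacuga
miR-25-3p: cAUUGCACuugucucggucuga
miR-92a-3p: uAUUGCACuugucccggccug
miR-92b-3p: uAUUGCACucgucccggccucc
miR-363-3p: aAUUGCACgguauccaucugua
miR-92b-5p: aGGGACGGgacguggugcaguguu

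The first 2 members share one seed, the next 4 share another, and miR-92b-5p, the opposite arm of the miR-92b hairpin, has a seed found in no other member. Counting from 1 at the 5′ end, miR-19a-3p and miR-19b-3p differ by the single substitution U11C. From miR-92a-3p to miR-92b-3p, 19 of 21 bases are equal and the substitutions are U10C and G21C. From miR-25-3p to miR-92a-3p, 18 of 21 bases are equal, with the substitutions C1U, U14C and U18C. Less alike is miR-363-3p, with 10 of 21 bases equal to miR-92a-3p, the shared seed included. Such close relatives can bind each other's probes; cross-hybridisation between miR-19a-3p and miR-19b-3p, and among miR-25-3p, miR-92a-3p and miR-92b-3p, was not tested.

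On GRCm38.p6 the members come from 4 chromosomes. The hairpin of miR-19a lies at chr14:115044000-115044081 on the plus strand, with the first copies of miR-19b and miR-92a downstream of it in the miR-17-92 cluster, at chr14:115044305-115044391 and chr14:115044427-115044506. RefSeq places the latter hairpins inside Mir17hg, a long non-coding RNA gene. The second copies are on the minus strand of chromosome X in the miR-106a-363 cluster, at chrX:52741983-52742066 for miR-19b-2 and chrX:52741838-52741928 for miR-92a-2, followed by miR-363 at chrX:52741693-52741767. Each copy yields the same mature sequence, so the spots of miR-19b-3p and miR-92a-3p cannot tell the 2 loci apart. The hairpin of miR-25, at chr5:138165321-138165404 on the minus strand, lies in the miR-106b-25 cluster inside Mcm7, which encodes a subunit of the replicative helicase. The hairpin of miR-92b is at chr3:89227116-89227198 on the minus strand and overlaps no other gene of the RefSeq table. It is shown because it is the one hairpin with both arms among the members; capitals mark the 5p arm and then the 3p arm.
Mir92b hairpin: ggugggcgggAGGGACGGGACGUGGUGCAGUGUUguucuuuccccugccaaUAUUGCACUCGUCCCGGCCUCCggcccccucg

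Each deposited value is the median brightness of a spot, in scanner units. Gain settings of the detector ranged from 43 (embryoid body) through 46 (2TS22c) to 47 (the other 3 arrays), and ZHBTc4 was alone on the second of 2 chips. A miRNA counted as detected when its spot was brighter than a limit 2 SD above the average of the 1664 blank spots, which lay between 40.3 and 61.6. By this measure 754 miRNAs were detected in V6.5 ES, 763 in PKM1 KI and 750 in the embryoid body, against 507 in 2TS22c and 520 in ZHBTc4. All 7 members were detected on all 5 arrays, as were 392 of the 1265 miRNAs. The ES markers of the miR-290-295 cluster, of which 6 of 7 names were found, were detected on every array, apart from 1 of the 6 in 2TS22c, and their summed raw intensity was 9010 in V6.5 ES, 9594 in PKM1 KI, 5486 in the embryoid body, 12978 in 2TS22c and 14561 in ZHBTc4. Neural, muscle and blood markers had summed raw intensities of at most 305 on every array.

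In raw intensity, not corrected for detector gain, the members fell into those that stayed within a narrow range and those that did not. The first spike control read 5900.5 in the embryoid body and 9316.5 to 10886 on the other arrays. As a percentage of that control, miR-19b-3p was 11.1 in the embryoid body and 6.18 to 7.23 elsewhere. By the same measure miR-25-3p was 3.54 in the embryoid body and 2.32 to 2.61 elsewhere. The values below are raw. miR-19a-3p read 222 in V6.5 ES, 176 in PKM1 KI, 146 in the embryoid body, 186 in 2TS22c and 256 in ZHBTc4. miR-19b-3p read 759, 633, 656, 576 and 719 on the same arrays in that order. For these miR-19 members the brightest array was 1.75 and 1.32 times the dimmest. miR-25-3p read 253, 263, 209, 243 and 243, in the same order. miR-92a-3p read 207, 222, 185, 193 and 216. Both lay closer together than miR-19a-3p, with the brightest array 1.26 and 1.20 times the dimmest, and the lowest value of each was the embryoid body, whose detector gain was lowest. miR-92b-3p read 96, 79, 66, 66 and 70, against detection limits of 59.9, 59.5, 40.3, 59.9 and 61.6.

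The other members separated the arrays. miR-363-3p, the last miRNA of the chromosome X cluster, read 141 in V6.5 ES, 133 in PKM1 KI and 159 in the embryoid body, but 66 in 2TS22c and 67 in ZHBTc4. miR-92b-5p read 2431, 3134 and 2445 in the first 3 cultures, against 589 in 2TS22c and 736 in ZHBTc4. For both miRNAs the 2TS22c and ZHBTc4 values lay below all other arrays with no overlap, and the brightest array was 2.41 times the dimmest for miR-363-3p and 5.32 times for miR-92b-5p. The share of all miRNAs whose raw values separated the arrays in this way is not given here. The detection limit was 59.9 in 2TS22c and 61.6 in ZHBTc4, so miR-363-3p was barely above it there. With a limit set in the same way from the negative control spots, 68.5 in ZHBTc4, miR-363-3p was not detected on that array.

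**Figure D1:**
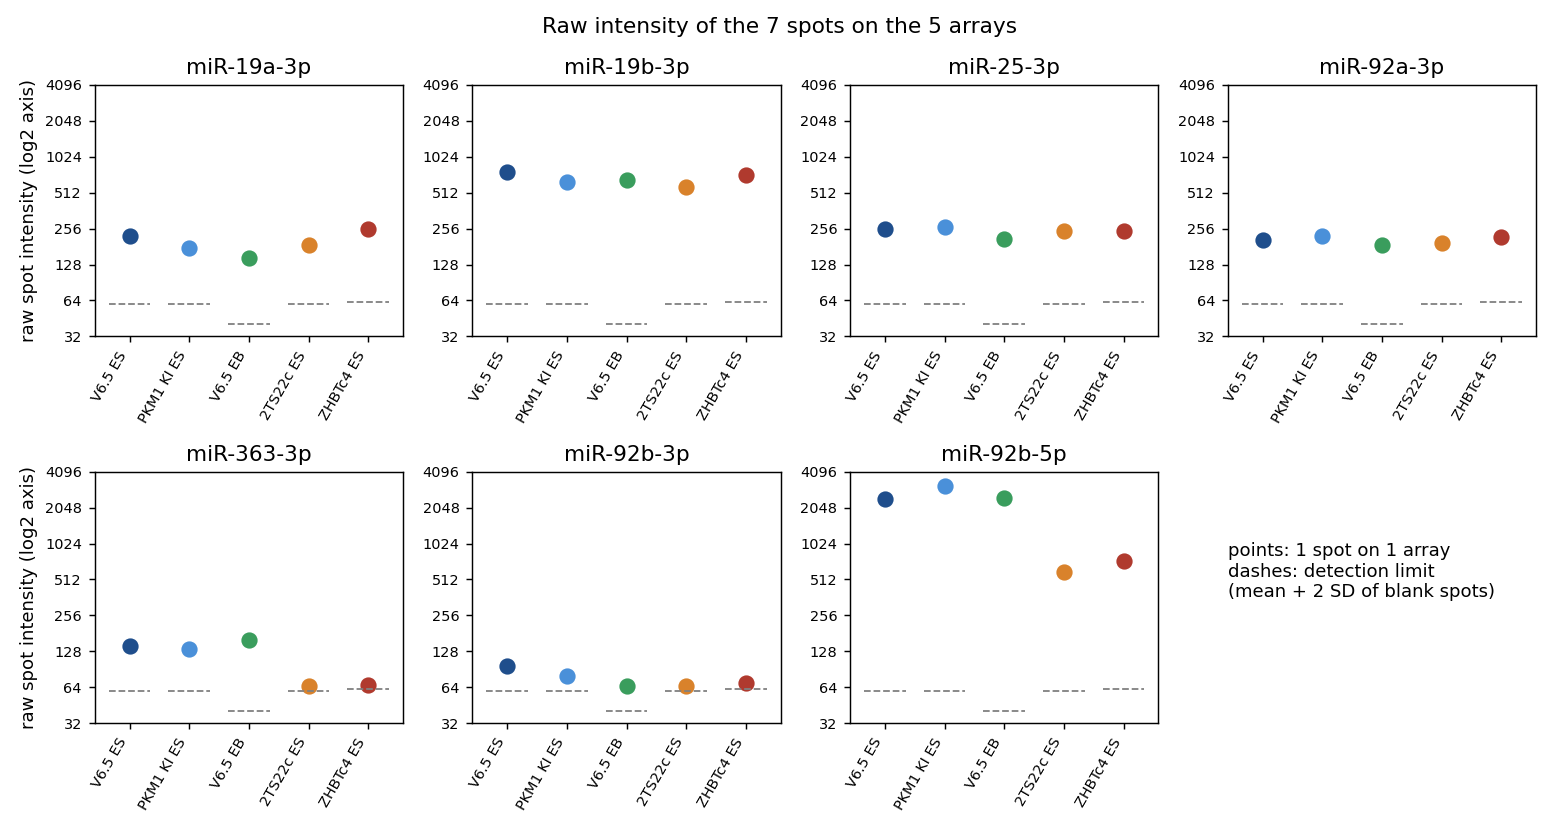
Raw spot intensity (log2 axis, scanner units) of each of the 7 members on the 5 arrays, 1 point per array, with the detection limit of each array drawn for comparison. miR-363-3p (66 and 67) and miR-92b-5p (589 and 736) were low in 2TS22c and ZHBTc4, while miR-25-3p stayed between 209 and 263 on all arrays.

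For comparison between arrays the intensities were background-corrected, quantile-normalized over the 1265 miRNA spots and put on a log2 scale, called log2 signal here. Quantile normalization gives every array the same distribution of values. A given raw intensity had a higher log2 signal on the 2TS22c and ZHBTc4 arrays, which had fewer detected spots: for miR-25-3p, 243 corresponded to 8.61 in 2TS22c and 253 to 7.68 in V6.5 ES. On this scale miR-19a-3p was 7.45 in V6.5 ES, 7.31 in PKM1 KI, 7.44 in the embryoid body, 8.24 in 2TS22c and 8.57 in ZHBTc4. miR-19b-3p was 9.25, 8.80, 9.20, 9.80 and 9.92 on the same arrays. Each miR-19 member was thus higher in 2TS22c and ZHBTc4 than on the other 3 arrays.

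miR-25-3p was 7.68, 7.75, 7.85, 8.61 and 8.46, in the order V6.5 ES, PKM1 KI, embryoid body, 2TS22c and ZHBTc4. miR-92a-3p was 7.36, 7.56, 7.71, 8.32 and 8.32. These 2 members put the arrays in nearly the same order, with V6.5 ES lowest, PKM1 KI next and the embryoid body in the middle. miR-363-3p ran the other way at 7.01, 6.95, 7.55, 6.49 and 6.43, and miR-92b-5p did so too at 10.95, 11.11, 11.21, 9.86 and 10.02. Both were highest in the embryoid body. The log2 signal of miR-92b-3p was 6.60, 6.41, 6.53, 6.49 and 6.52, a span of 0.19. With no replicate arrays the only measures of error are the spike controls and the spread between PKM1 KI and V6.5 ES. The 8 spots of each spike control had log2 intensities with an SD of 0.05 to 0.16 within an array. The difference between PKM1 KI and V6.5 ES had an SD of 0.24 over the 643 miRNAs detected on both arrays, which includes any difference between these lines. Neighbouring arrays in the order of a member that differed by less than that SD were taken as not separated. By this measure 2TS22c and ZHBTc4 were separated from each other for miR-19a-3p and for no other member. This depended on the processing: with local background subtracted, their difference was 0.01 for miR-19a-3p and 0.54 for miR-19b-3p. Among V6.5 ES, PKM1 KI and the embryoid body, neighbours were separated for miR-19b-3p, where PKM1 KI was lowest, and for miR-363-3p, where the embryoid body was highest, and for none of the other 5.

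The comparisons of the other 4 arrays were set against the single V6.5 ES array and therefore all share it. Each has 1 array on a side, so there is no test and the values describe those arrays. Against V6.5 ES, PKM1 KI differed little in the members. The lowest was miR-19b-3p with a log2 difference of -0.46 and the highest miR-92a-3p with 0.20; miR-19a-3p was at -0.13, miR-25-3p at 0.07, miR-363-3p at -0.05, miR-92b-3p at -0.19 and miR-92b-5p at 0.17. With local background subtracted, the signs of miR-19a-3p (0.20) and miR-92b-5p (-0.15) turned. None of the 7 was at least 2-fold apart, against 0.343% of the 874 miRNAs detected on either array. The median over the members was -0.05, and over all of these miRNAs it was 0.00.

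In the embryoid body against V6.5 ES, the difference of miR-363-3p was 0.55, that of miR-92a-3p was 0.35, that of miR-92b-5p 0.26 and that of miR-25-3p 0.18, while miR-19a-3p at -0.01, miR-19b-3p at -0.05 and miR-92b-3p at -0.06 were close to 0. Again none was at least 2-fold apart, against 0.353% of 850 miRNAs, and the members' median was 0.18 beside 0.01 over all. These values and their order depend on the processing. With local background subtracted, miR-363-3p was at 0.06, miR-25-3p at -0.34 and miR-19b-3p, then the largest, at 0.58. With each array scaled to its spike controls, the median of all miRNAs detected on both arrays was 0.66 higher in the embryoid body, and miR-19b-3p then stood at 0.65 and miR-363-3p at 1.08.

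The members parted in 2TS22c. Against V6.5 ES the log2 difference was 0.79 for miR-19a-3p, 0.55 for miR-19b-3p, 0.94 for miR-25-3p and 0.96 for miR-92a-3p, but -0.52 for miR-363-3p, -0.11 for miR-92b-3p and -1.08 for miR-92b-5p. Only miR-92b-5p was at least 2-fold apart, 2.12-fold lower, against 4.73% of 804 miRNAs. ZHBTc4 had the same signs, with 1.12 for miR-19a-3p, 0.66 for miR-19b-3p, 0.79 for miR-25-3p, 0.96 for miR-92a-3p, -0.58 for miR-363-3p, -0.08 for miR-92b-3p and -0.92 for miR-92b-5p. There miR-19a-3p, 2.18-fold higher, was the one member at least 2-fold apart, against 4.1% of 805 miRNAs. With spike scaling the differences of miR-19a-3p, miR-19b-3p, miR-25-3p and miR-92a-3p were -0.05, -0.20, 0.13 and 0.09 in 2TS22c, and 0.29, 0.02, 0.04 and 0.15 in ZHBTc4. In the authors' table they were 0.08, -0.03, 0.23 and 0.04 in 2TS22c, and 0.53, 0.24, 0.27 and 0.17 in ZHBTc4. The higher values of these 4 members in both lines were therefore much smaller under either scaling, and in 2TS22c some turned negative, while miR-363-3p and miR-92b-5p stayed negative. As reported, the members' median was 0.55 in 2TS22c and 0.66 in ZHBTc4, while over all miRNAs it was 0.08 and 0.06.

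Set directly against ZHBTc4, without the V6.5 array, 2TS22c differed by -0.33 in miR-19a-3p and 0.15 in miR-25-3p, and the other 5 members lay between these values. With local background subtracted the members ran from -0.37 (miR-92b-3p) to 0.54 (miR-19b-3p), with miR-19a-3p at 0.01. No member was at least 2-fold apart, and 0.163% of 613 miRNAs were.

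**Figure D2:**
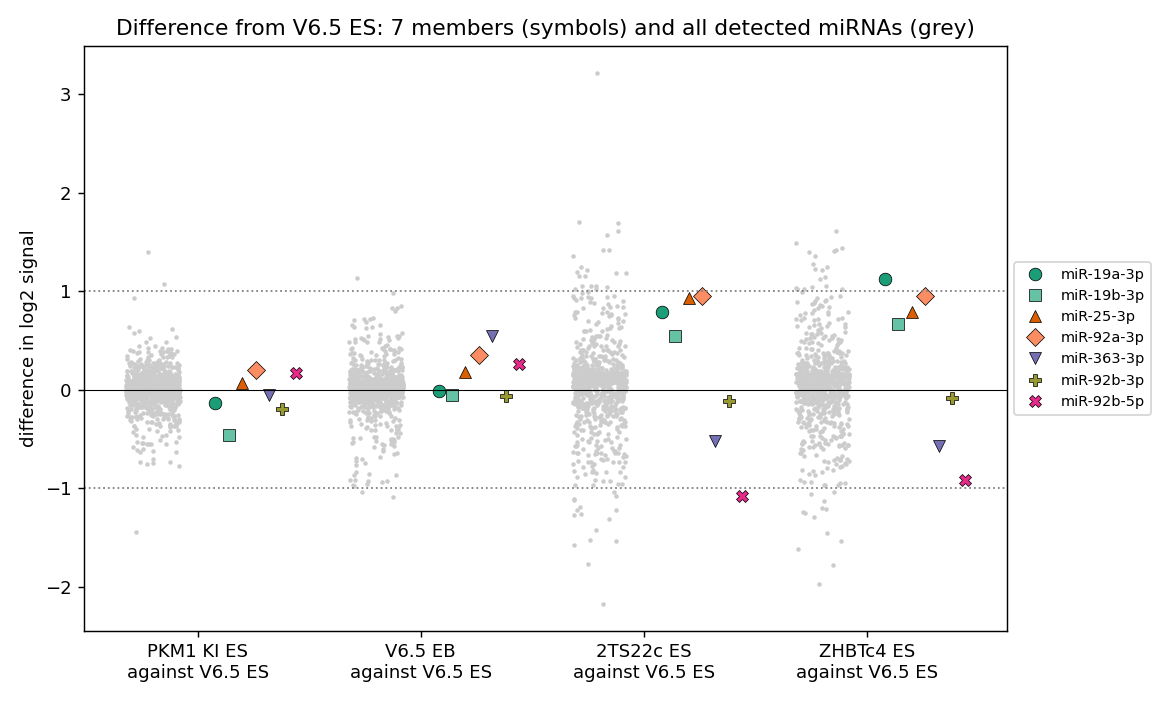
Difference in log2 signal from V6.5 ES for each of the 4 other arrays; symbols are the 7 members and grey points are all miRNAs detected on either array. In 2TS22c and ZHBTc4 the miR-19, miR-25 and miR-92a symbols lie between 0.55 and 1.12, and those of miR-363-3p and miR-92b-5p between -1.08 and -0.52.

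The first test asked whether the embryoid body differed from the 4 ES lines, which stood in for replicates of ES cells; the single embryoid body array was taken to vary as they do. None of the members passed in limma (0 of 7), and none of all 959 miRNAs tested did (0.0%), of which 24 had an unadjusted p under 0.05. The nearest member was miR-363-3p, with a log2 difference of 0.83 (SE 0.28, limma adjusted p = 0.991, unadjusted 0.0301), and it was higher in the embryoid body than in each of the 4 ES lines. The difference of miR-92b-5p was 0.72 (SE 0.55, limma adjusted p = 0.991), and its embryoid body value was not separated from that of PKM1 KI. Both miR-363-3p and miR-92b-5p were highest in the embryoid body, and the share of all miRNAs for which this held is not given here. With local background subtracted, miR-363-3p was 0.06 above V6.5 ES. The differences of miR-19a-3p (-0.46), miR-19b-3p (-0.24), miR-25-3p (-0.27), miR-92a-3p (-0.18) and miR-92b-3p (0.03) were each smaller than their SE. Scaling to the spike controls instead called 5 of the 7 members and 670 of all 959 miRNAs, every one of them higher in the embryoid body. The 2 members not called under it were miR-19a-3p and miR-92b-5p.

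The second test set 2TS22c and ZHBTc4 against V6.5 and PKM1 KI over the 4 ES arrays; this grouping of the lines was chosen with earlier results of the same arrays known. miR-19a-3p, miR-19b-3p, miR-25-3p and miR-92a-3p were higher in 2TS22c and ZHBTc4, and miR-363-3p and miR-92b-5p were lower. That made 6 of 7 members past an adjusted p of 0.05 in limma, against 13.9% of the 959 miRNAs tested; 4 members were higher, against 7.51% of all, and 2 were lower, against 6.36%. The p-values measure only the spread between these arrays of different lines.

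In that test miR-19a-3p rose by 1.03 on the log2 scale (SE 0.14, limma adjusted p = 0.00934) and miR-19b-3p by 0.83 (SE 0.17, adjusted p = 0.0290). miR-25-3p rose by 0.83 (SE 0.11, limma adjusted p = 0.00859) and miR-92a-3p by 0.85 (SE 0.11, adjusted p = 0.00864). In each of these 4 members both 2TS22c and ZHBTc4 lay above both V6.5 and PKM1 KI. The share of all miRNAs with no overlap between these groups is not given here, so their separation does not set the members apart. Of all 959 miRNAs, 243 had an unadjusted limma p under 0.05. miR-92b-5p fell by 1.08 (SE 0.12, limma adjusted p = 0.00530) and miR-363-3p fell by 0.52 (SE 0.10, adjusted p = 0.0230), again with no overlap between the groups. miR-92b-3p differed by 0.00 in size (SE 0.11, limma adjusted p = 0.997), and its groups overlapped.

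The calls rested on all 4 arrays. Leaving out any 1 of them left no limma call among the members or among all 959 miRNAs, of which 184 to 198 then had an unadjusted p under 0.05. The array left alone on its side was assumed to vary like the others. Without ZHBTc4, which keeps the comparison within 1 chip, the differences were 0.86 for miR-19a-3p, 0.78 for miR-19b-3p, 0.90 for miR-25-3p, 0.85 for miR-92a-3p, -0.49 for miR-363-3p and -1.16 for miR-92b-5p.

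The size of the higher group's differences depended on the scaling. With arrays scaled to their spike controls, the difference was 0.24 for miR-19a-3p, 0.01 for miR-19b-3p, 0.03 for miR-25-3p and 0.04 for miR-92a-3p, and none of the 4 was called. Under that scaling miR-363-3p fell by 0.80 and miR-92b-5p by 1.93, and both were still called. In the authors' deposited table these differences, computed here in the same way, were 0.55, 0.21, 0.22 and 0.09 for the 4 members above, none called, with -2.31 for miR-363-3p and -1.88 for miR-92b-5p, both called. The value of -2.31 rests on dim entries, 20.9 in 2TS22c and 20.1 in ZHBTc4. In 2TS22c miR-92b-3p had the same raw intensity as miR-363-3p but an entry of 40.0. With local background subtracted no member was called. Across the 7 ways of processing, miR-363-3p ranged from -2.31 to -0.38 and miR-92b-5p from -1.93 to -0.85, while miR-92a-3p ranged from 0.04 to 1.00.

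Over all 959 miRNAs, the split of 72 higher and 61 lower became 23 higher and 193 lower with spike scaling, 16 and 254 in the authors' table, and 390 and 104 with median scaling. Empty entries of the authors' table were set to the lowest value of their column. Over its miRNA spots there were 574 in 2TS22c and 545 in ZHBTc4, against 288 in V6.5 and 275 in PKM1 KI. How far the authors' table counts and median rest on these filled entries was not tested. The median difference of all 959 was -0.02 as reported, -0.09 with spike scaling, -0.45 in the authors' table and 0.30 with median scaling. In each of the 7 ways of processing, miR-19a-3p, miR-19b-3p, miR-25-3p and miR-92a-3p lay above the median and miR-363-3p and miR-92b-5p below it.

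**Figure D3:**
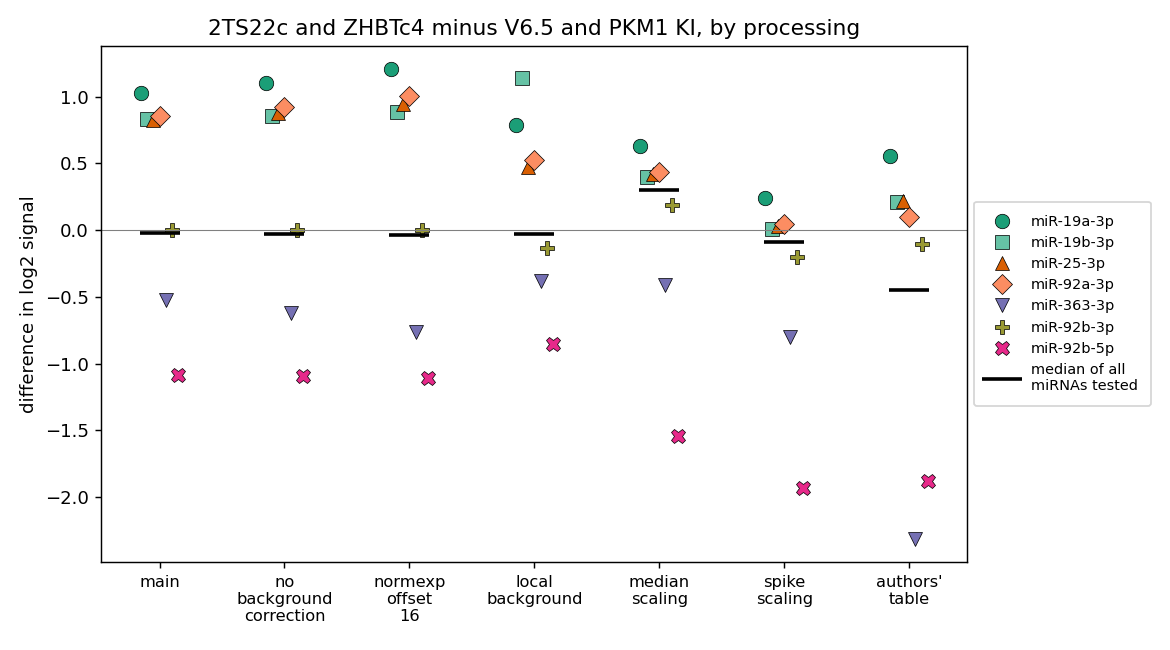
Difference in log2 signal of each member (symbols), 2TS22c and ZHBTc4 minus V6.5 and PKM1 KI, under 7 ways of processing on the x axis; the black bars are the median of all miRNAs tested. miR-363-3p and miR-92b-5p lie below 0 in all 7, while miR-19b-3p lies between 0.01 and 1.14.

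Ratios of 2 spots on the same array do not move with a scaling factor, although the ratio itself depends on the probes and only its change is read here. The raw intensity of miR-92b-5p was 25.3 times that of miR-92b-3p in V6.5 ES, 39.7 times in PKM1 KI and 37.0 times in the embryoid body. In 2TS22c it was 8.92 times and in ZHBTc4 10.5 times. On the log2 signal scale, the difference of the 5p arm relative to the 3p arm was -0.97 in 2TS22c and -0.84 in ZHBTc4, against V6.5 ES, with ranges over the 7 ways of processing of -1.63 to -0.70 and -1.48 to -0.75. The 3p spot was near the detection limit in 2TS22c and ZHBTc4 and no brighter than the brightest blank spot of those arrays. In PKM1 KI too it was dimmer than the brightest blank spot, 79 against 89. The differences of the 3p spot are therefore poorly measured, and the size of the ratio's change is uncertain.

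miR-363-3p was set against miR-92a-3p, with which it shares a seed and, through miR-92a-2, a cluster. Its difference from V6.5 ES relative to that of miR-92a-3p was -1.47 in 2TS22c (range -2.33 to -0.85 over the 7 ways of processing) and -1.53 in ZHBTc4 (range -2.51 to -1.0). Against miR-106a-5p, the first miRNA of the chromosome X cluster, the same measure was -1.16 in 2TS22c and -1.08 in ZHBTc4. Against miR-20b-5p of that cluster it was -1.08 and -1.29. In each case miR-363-3p had the lower difference of the pair, under all 7 ways of processing. These ways are not independent checks, and median and spike scaling give the same relative difference by construction. These relative differences were not tested, and the dim miR-363-3p spots limit their size. In the embryoid body the corresponding values were 0.19 against miR-92a-3p, 0.49 against miR-106a-5p and 0.33 against miR-20b-5p.

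The miR-17 and miR-18 type guide strands of the same clusters gave the setting for these values. In the second test 7 of 8 were higher, against 7.51% of all miRNAs, and none lower, with a median of 1.13 beside -0.02 over all miRNAs tested. miR-20a-5p rose by 1.39, miR-106b-5p by 1.28, miR-93-5p by 1.25 and miR-17-5p by 1.11, with adjusted p-values from limma of 0.00639 or less. miR-106a-5p and miR-20b-5p, from the chromosome X cluster, rose by 0.72 and 0.73. miR-18b-5p of that cluster, at 0.34 (limma adjusted p = 0.224), was not called. The median was 0.28 with spike scaling, where 2 of the 8 and 23 of all 959 were called higher, and 0.49 in the authors' table, where none of the 8 and 16 of the 959 were. As reported, miR-363-3p had the opposite sign to these 3 strands of chromosome X. With spike scaling it had the same sign: miR-106a-5p was at -0.07, miR-20b-5p at -0.09 and miR-18b-5p at -0.11, none called, beside -0.80 for miR-363-3p. With local background miR-18b-5p was at -0.22. The sign of miR-25-3p, at 0.83, was that of its cluster mates miR-106b-5p and miR-93-5p.

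Of the opposite arms of the members' hairpins other than miR-92b, 7 were on the array and 5 were detected on at least 1 array. None was called in the second test as reported, against 13.9% of all 959 miRNAs. With spike scaling 3 of the 5 were lower past the threshold, beside 193 of all 959. The authors' table also had 3 of the 5 lower, beside 254 of all 959. With median scaling 2 were lower and 1 higher, beside 104 lower and 390 higher of all 959. The spot of miR-363-5p read 154, 195, 173, 83 and 84 in raw intensity, in the order V6.5 ES, PKM1 KI, embryoid body, 2TS22c and ZHBTc4, a pattern of high and low arrays like that of its partner arm, and its log2 difference was -0.42 (SE 0.16, limma adjusted p = 0.173). miR-92a-2-5p read 236, 280, 180, 98 and 118, with a difference of -0.40 (SE 0.13, limma adjusted p = 0.137). miR-25-5p read 116, 140, 111, 70 and 69, with a difference of -0.36 (SE 0.12, limma adjusted p = 0.122). These 3 opposite arms were lowest in raw intensity in 2TS22c and ZHBTc4. Their partner arm miR-363-3p was lowest there too, at 66 and 67, whereas the partner arms miR-92a-3p and miR-25-3p were not. On every array miR-363-5p was brighter than miR-363-3p. Fewer miRNAs in all were detected on those 2 arrays, 507 and 520, against 754 in V6.5 ES and 763 in PKM1 KI.

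**Figure D4:**
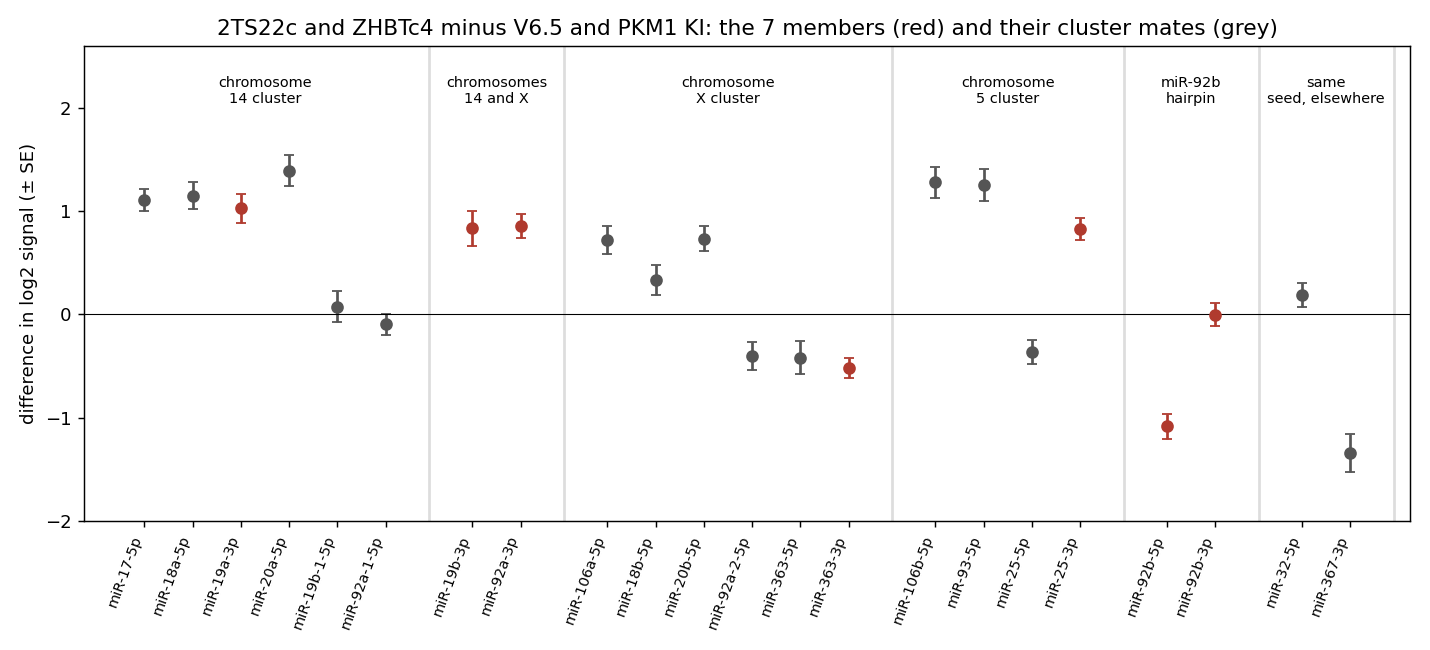
Difference in log2 signal with its SE, 2TS22c and ZHBTc4 minus V6.5 and PKM1 KI, for the 7 members (red) and the other miRNAs of their clusters, hairpins and seed (grey), grouped by locus. miR-363-3p at -0.52 lies below miR-106a-5p at 0.72 and miR-20b-5p at 0.73 of the same cluster, and miR-92b-5p lies at -1.08; the fitted point of miR-367-3p rests on arrays where it was below the detection limit.

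The RefSeq table holds 2 further miRNAs on this array with the miR-25 seed but from other hairpins, shown with the seed in capitals.
miR-367-3p: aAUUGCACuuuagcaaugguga
miR-32-5p: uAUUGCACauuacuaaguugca
The spot of miR-367-3p, of the miR-302 cluster, was below the detection limit in 2TS22c (raw 49) and ZHBTc4 (raw 54), against 160 in V6.5 ES and 231 in PKM1 KI. With the lowest detected signal in its place, it was on average at least 2.13-fold lower in 2TS22c and ZHBTc4 than the mean of V6.5 and PKM1 KI. Against V6.5 ES alone the bound was 1.77-fold in 2TS22c and 1.78-fold in ZHBTc4. The second test used the values below the limit as they were, and gave -1.34 (limma adjusted p = 0.00933). With local background it was -0.84 and not called (limma adjusted p = 0.160). miR-32-5p differed by 0.19 (SE 0.12, limma adjusted p = 0.383). As reported, the miRNAs with the miR-25 seed therefore held calls in both directions: miR-25-3p and miR-92a-3p higher, miR-363-3p and miR-367-3p lower. With spike scaling and in the authors' table only the lower calls remained, and with local background none did.

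Markers of other cell states moved with the same split of the arrays. The fibroblast and feeder markers were detected 7 of 7 in V6.5 ES, PKM1 KI and the embryoid body and 4 of 7 in 2TS22c and ZHBTc4, with a summed raw intensity of 784 to 1170 on the former and 499 and 527 on the latter. Of all miRNAs, 59.3% to 60.3% were detected on the former and 40.1% and 41.1% on the latter, and raw sums include background. The second test called 2 of these 7 lower, against 6.36% of all. In 2TS22c 6 of the 7 were below V6.5 ES, miR-214-3p only by -0.09, and miR-145a-5p was at 0.01. The miR-302 and miR-367 markers of early differentiation were detected 5 of 5 on the former, with sums of 534 to 2360, and 1 of 5 on the latter, with sums of 271 and 270. The sums of the ES markers, given above, were highest in 2TS22c and ZHBTc4. All 3 neural markers were higher in the embryoid body than in V6.5 ES, with a median log2 difference of 0.72, and none was called in the first test. Their miR-124-3p read 99, 61, 152, 99 and 107 in raw intensity, in the order V6.5 ES, PKM1 KI, embryoid body, 2TS22c and ZHBTc4. It was the 1 of 3 called in the second test, at 0.80 (limma adjusted p = 0.0349), against 13.9% of all 959 miRNAs. Median scaling and no background correction also called it. Local background, an offset of 16, spike scaling and the authors' table did not. miR-9-5p and miR-9-3p were at 0.03 and 0.07 as reported, and were called with median scaling only. In total RNA, a smaller share of cells with a miRNA and less of it per cell cannot be told apart, and the part of these markers, and of the smaller number of detected miRNAs, in the members' differences was not tested.

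The miRNAs whose profiles over the 5 arrays were most like each member's were sought among 385 others detected on all arrays, by the root mean square (RMS) difference of the log2 signals after each profile was centred on its mean. For miR-19a-3p the nearest was its cluster mate miR-18a-5p at 0.07, followed by miR-293-5p and miR-290-3p of the miR-290-295 cluster, both at 0.10; the median over all candidates was 0.51. For miR-19b-3p the nearest were miR-1897-5p at 0.11, miR-106a-5p at 0.11 and miR-96-5p at 0.12. miR-25-3p and miR-92a-3p had the same 3 neighbours, miR-3068-3p, miR-16-5p and miR-3072-3p, and lay 0.07 from each other.

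miR-363-3p was nearest to miR-5130 at 0.12, then miR-671-5p and miR-3072-5p, both at 0.13. miR-92b-5p was nearest to miR-6244 at 0.05, followed by miR-5126 and miR-2861, and miR-92b-3p to miR-365-3p, miR-1943-5p and miR-574-5p. Between the members, miR-92b-5p lay 0.27 from miR-363-3p and 1.06 from miR-19a-3p. miR-3072-3p was thus among the nearest of miR-25-3p and miR-92a-3p, and its opposite arm miR-3072-5p among the nearest of miR-363-3p. In GC content the members of the higher group ranged from 34.8% (miR-19a-3p) to 57.1% (miR-92a-3p), and those of the lower group were at 40.9% (miR-363-3p) and 62.5% (miR-92b-5p).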

How the data were processed

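The deposited scanner files, 1 for each array, hold the intensity of each spot (median of its pixels) and the local brightness around it, with no background subtracted, per the file headers. A further table of processed intensity came from the authors; how it was made is not given in the sources used here. Over its filled entries each column followed the scanner values nearly linearly, has a median of 25, and is on a linear, background-subtracted scale. Dim spots could depart from this: in 2TS22c miR-363-3p and miR-92b-3p both read 66, but their entries were 20.9 and 40.0. Its empty entries, 275 to 574 of the 1265 miRNA spots of an array, were set here to the lowest value of their column. 

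Spot intensities were corrected with normexp (offset 50, saddle-point fit to every spot), then quantile-normalized over the 1265 miRNAs and put on a log2 scale, in R 4.3.3 with limma 3.58.1. The offset pulls differences of dim spots towards 0. A difference in which 1 of 2 arrays was below the limit is a bound: the dim side is raised to that array's lowest detected signal where it lies under it. Tests used limma (lmFit and eBayes, two-sided, Benjamini-Hochberg over 959 miRNAs detected on at least 1 array, adjusted p under 0.05). Tables and sequences were handled with Python 3.11.15 and pandas 2.3.3.

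The members and lists were chosen with earlier results of these data known. Named were all 7 members; opposite arms, cluster guide strands and miRNAs of the same seed where at least 2-fold apart in a pair of arrays, otherwise with up to 4 examples a list; and the 3 nearest profiles of each member. Beyond this rule, miR-18b-5p, miR-20b-5p and miR-106a-5p are named as cluster mates of miR-363-3p, after their values were seen, as is the marker miR-124-3p. Names are those of the array design. Alternatives were local background, no background correction, a normexp offset of 16, median scaling, spike scaling, the authors' table, other detection limits, all miRNA spots, and leaving out each array. With 5 arrays, precision is limited by their number.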

Additional observations from a re-analysis of the deposited data

How the results depend on the processing

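For the embryoid body against the 4 ES lines, spike scaling gave 670 calls over all miRNAs and 5 among the members, where the reported counts were 0. It also turned the sign of miR-19a-3p (0.38), miR-19b-3p (0.75), miR-25-3p (0.58) and miR-92a-3p (0.66); the authors' table did so for miR-19b-3p (0.23), miR-25-3p (0.13) and miR-92a-3p (0.093), local background for miR-19b-3p (0.22) and miR-92b-3p (-0.043), and median scaling for miR-92b-3p (-0.062). For 2TS22c and ZHBTc4 against V6.5 and PKM1 KI, 133 calls over all miRNAs became 34 with local background, 494 with median scaling, 216 with spike scaling and 270 with the authors' table, and 0 to 0 without any 1 array. The 6 calls among the members became 0 with local background, 2 with spike scaling, 2 with the authors' table and 0 to 0 without any 1 array. miR-92b-3p, at 0.00 as reported, was 0.19 with median scaling and ranged from -0.098 to 0.092 when 1 array was left out (0.011 without 2TS22c, 0.092 without V6.5). Members at least 2-fold apart from V6.5 ES numbered 1 in the embryoid body with spike scaling. In 2TS22c, where 1 was reported, they numbered 2 with local background, 2 with no background correction, 3 with offset 16 and 2 with the authors' table. In ZHBTc4, where 1 was also reported, the numbers were 0, 2, 2 and 2 in that order. The shares of all miRNAs past 2-fold under these alternatives are not given here, so the counts do not set the members apart. The causes were not tested. No paired analysis was possible because each culture has 1 array. Intensities of miR-363-3p and miR-92b-3p near the blank spots limit what their fold differences can show. Above the brightest blank spot, 5 of 7 members were detected in 2TS22c and in ZHBTc4, beside 215 and 277 of all 1265 miRNAs.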
